A study of Homo sapiens with 6 samples.

Results

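The ATP-dependent chromatin remodellers examined here were 36 genes chosen by symbol: the ATPases and subunits of the SWI/SNF complexes, the ISWI ATPases with BPTF, the CHD enzymes, INO80, SMARCAD1 and SMARCAL1. All 36 were found among the 60623 genes of the deposited tables, and all 36 were counted deeply enough to be tested. Poly-A RNA sequencing followed them in DU145 cells, a long-used human prostate cancer line that the labels give as wild type. The 3 CCS1477 libraries came from cells given 1 µM CCS1477, and the 3 DMSO libraries from cells given the solvent, in each case over 24 h. CCS1477 (inobrodib) is a bromodomain inhibitor directed at the histone acetyltransferases CBP and p300. Nothing in the labels states that replicates were separate cultures, so the p-values below cover only the spread between these libraries, which may be technical.

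Remodellers use ATP to slide, evict or exchange nucleosomes. SWI/SNF complexes are built around the ATPase SMARCA4 or SMARCA2 and exist in several forms: BAF, which carries ARID1A or ARID1B and DPF2, PBAF, which carries ARID2, PBRM1, BRD7 and PHF10, and the non-canonical form, which carries BRD9. ISWI enzymes space nucleosomes, the CHD family recognises histones through chromodomains, and INO80 acts on nucleosomes that hold the variant H2A.Z. Several SWI/SNF subunits, and BPTF, carry bromodomains themselves, the acetyl-lysine-binding fold that CCS1477 occupies in CBP and p300.

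The libraries held 8691393 to 9412893 counts with CCS1477 and 8286883 to 11956748 with DMSO, and the remodeller genes took 0.400% to 0.422% of the counts with CCS1477 and 0.367% to 0.398% with DMSO. The median remodeller gene had 727.5 to 815 counts per CCS1477 library and 621 to 949 per DMSO library. The epithelial markers EPCAM, KRT8, KRT18, KRT19, CDH1 and KRT7 were all present, with a summed level of 2774 to 2940 TPM, the deposited level per transcript length, with CCS1477 and 3068 to 3485 TPM with DMSO. Of these 6 markers CDH1, KRT7 and KRT19 were lower with CCS1477 and the other 3 did not pass the test described below. KLK3 and KLK2, which encode kallikreins secreted by luminal prostate cells, were at 0 in every library. Among markers of other cell types, PTPRC, CD3E, PECAM1, DCN and LUM were at 0 throughout. The 5 immune markers, of which CD68 gave most of the level, summed to 32.5 to 40.9 TPM with CCS1477 and 37.5 to 70.3 TPM with DMSO. The 4 fibroblast markers summed to 3.99 to 5.46 TPM with CCS1477 and 5.78 to 10.8 TPM with DMSO, and the 3 endothelial markers to at most 0.05 TPM with CCS1477 and 0.46 TPM with DMSO. The part of these differences in the results was not tested. The labels give DU145 for all libraries, and these sums rest on a few genes, so they do not count cells of other types. CD68 was lower with CCS1477 (log2 fold change -0.56, edgeR quasi-likelihood test, Benjamini-Hochberg adjusted p = 0.00709). COL1A1 gave most of the fibroblast sum and did not pass.

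DMSO library 3 was compared with the other DMSO libraries by transcript length, and no other library was compared in this way. Relative to the mean of DMSO 1 and 2, its median log2 difference was -0.14 in genes with an implied transcript length over 4 kb and 0.14 in genes under 2 kb. Of the remodeller genes 20 fell in the class over 4 kb, and 22 of the 36 had their lowest DMSO level in DMSO 3, against 36.6% of all tested genes.

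Sequences just upstream of starts of PBRM1, PHF10 and SMARCA2, the genes higher with CCS1477 in the test described below, are shown first. PBRM1 shares its start region with the oppositely oriented gene GNL3. SMARCA2 has both a start for full-length transcripts and internal starts for short ones. Gene counts do not measure the use of a start, and the sequences are given as description. They are RefSeq promoter windows of build GRCh38.p14, each the 250 bases before a listed start, 5′ to 3′ on the gene's strand. Capitals mark matches, on either strand, to any of 7 motifs. These were the CCAAT box, the GC box written GGGCGG, the E-box written CACGTG and the ETS motif written CCGGAAG. The others were the cAMP response element TGACGTCA, the AP-1 motif written TGANTCA and the TATA box written TATAAA, and none of the 7 is contained in another.
PBRM1, chr3:52685914-52686163, minus strand: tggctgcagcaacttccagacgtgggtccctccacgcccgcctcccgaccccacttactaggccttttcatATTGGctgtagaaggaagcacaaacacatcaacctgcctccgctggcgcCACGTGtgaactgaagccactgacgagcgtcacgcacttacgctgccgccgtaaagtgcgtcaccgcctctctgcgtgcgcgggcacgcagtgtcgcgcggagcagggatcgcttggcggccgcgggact
PHF10, chr6:169724501-169724750, minus strand: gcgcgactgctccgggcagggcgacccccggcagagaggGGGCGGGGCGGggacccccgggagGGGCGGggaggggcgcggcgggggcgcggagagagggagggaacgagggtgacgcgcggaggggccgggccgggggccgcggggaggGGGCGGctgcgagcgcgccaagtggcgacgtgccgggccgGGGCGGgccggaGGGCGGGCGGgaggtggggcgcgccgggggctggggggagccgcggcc
SMARCA2, full-length start, chr9:2015097-2015346, plus strand: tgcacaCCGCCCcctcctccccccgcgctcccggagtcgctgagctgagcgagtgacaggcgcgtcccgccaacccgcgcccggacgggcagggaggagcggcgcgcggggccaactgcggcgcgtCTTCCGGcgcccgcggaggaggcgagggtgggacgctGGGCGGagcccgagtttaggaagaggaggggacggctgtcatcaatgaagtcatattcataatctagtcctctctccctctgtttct
SMARCA2, internal start, chr9:2158214-2158463, plus strand: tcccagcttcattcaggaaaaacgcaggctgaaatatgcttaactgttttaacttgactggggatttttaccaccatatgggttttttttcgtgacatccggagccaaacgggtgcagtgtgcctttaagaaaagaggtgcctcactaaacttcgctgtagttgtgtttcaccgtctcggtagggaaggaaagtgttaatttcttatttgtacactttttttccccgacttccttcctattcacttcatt

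The PBRM1 window shown, of 2 in RefSeq, held 1 CACGTG, a motif found in 6.35% of all 35114 windows of this length, and 1 CCAAT, found in 32% of them. The other PBRM1 window, chr3:52685600-52685849, had 40 CpG dinucleotides, 6 GGGCGG matches and neither of these motifs, and the one shown was chosen because it meets GNL3. By RefSeq starts, GNL3 begins 7 and 119 bases away from this PBRM1 start on the other strand, so the window also spans the beginning of GNL3. The PHF10 window held 7 GGGCGG matches, a motif of GC-rich promoters present in 42.6% of all windows and in 27 of the 49 windows of remodeller genes. At SMARCA2, which had 4 windows, that of the full-length start had 29 CpG dinucleotides and 2 GGGCGG matches, whereas that of the internal start had 8 CpG and no match to the motifs searched. In the GENCODE 29 annotation, full-length SMARCA2 transcripts begin at 2015186 to 2015288, inside the full-length window. Part of that sequence therefore lies downstream of those starts. Windows were matched for 29 of the 36 genes and had a median of 21 CpG, against 11 over all windows. These matches describe letters in a window and say nothing of binding.

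Among the remodeller genes the largest fold change was a rise of PBRM1, and calls were about as frequent as among all genes. In the edgeR quasi-likelihood test, Benjamini-Hochberg adjusted over all 14928 tested genes, 3 of 36 were higher with CCS1477 (PBRM1, PHF10 and SMARCA2; 8.33%, against 7.23% of all tested genes) and 2 were lower (SMARCD2 and CHD7; 5.56%, against 10.7%). The share higher is near the background and the share lower is under it, each resting on few genes, and 31 genes did not pass. The median log2 fold change was 0.02 over the remodeller genes and -0.003 over all tested genes. Their fold changes ran from -0.34 to 0.73 on the log2 scale. In CPM, counts scaled to equal library totals with TMM factors, every CCS1477 library lay above every DMSO library for 7 genes, against 16.5% of all tested genes, and below for 6, against 19.3%. In TPM this held for 8 genes above, against 16.2%, and 0 below, against 11.8%. Without DMSO 3 the calls numbered 1 higher and 3 lower, and with scaling by library size alone 5 higher and 0 lower.

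**Figure D1:**
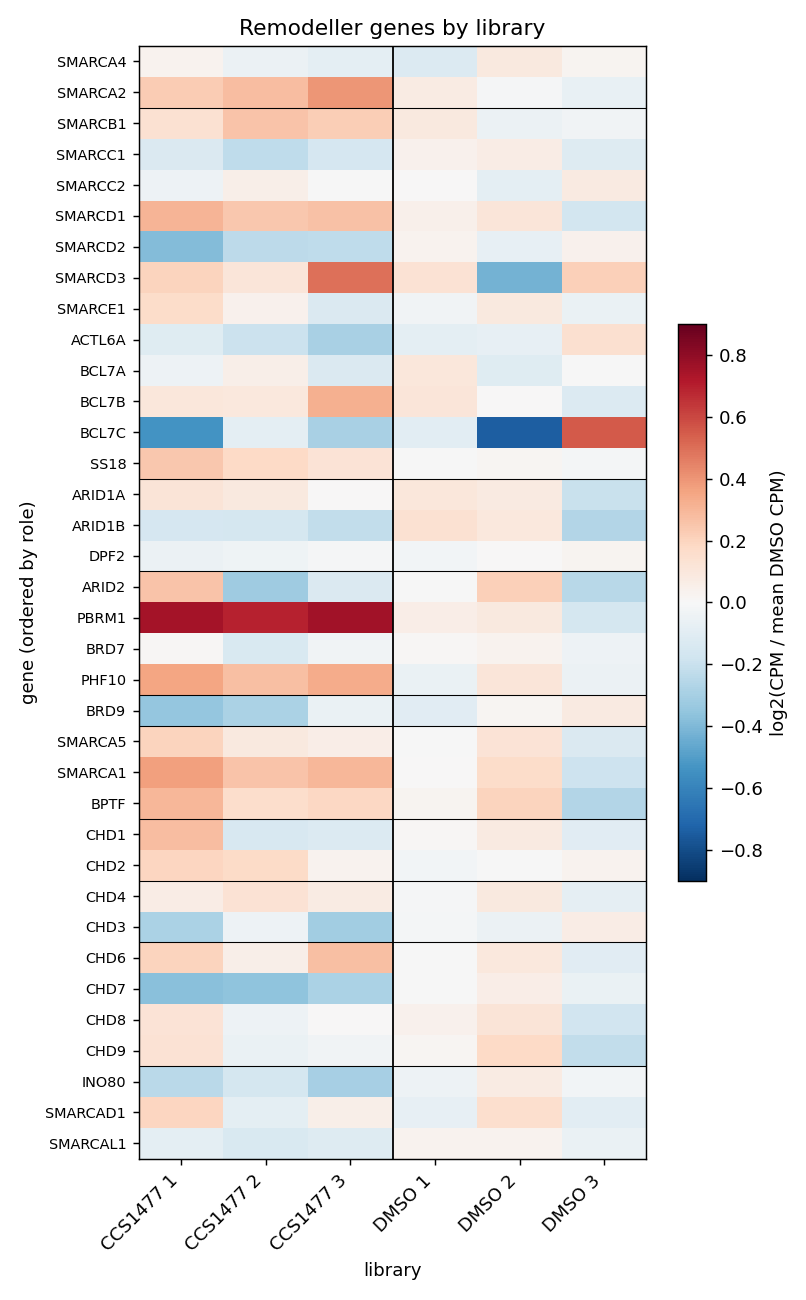
Level of each remodeller gene (rows, ordered by role, with lines between roles) in each library (columns, CCS1477 left of the vertical line), as log2 of CPM over the mean DMSO CPM of that gene. PBRM1 is the row with the highest values in all 3 CCS1477 libraries, and many rows of DMSO 3 are below 0.

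PBRM1 (ENSG00000163939, chromosome 3, 52545352 to 52685917), the subunit of PBAF with several bromodomains in tandem, had 104, 99.4 and 104 CPM with CCS1477 and 64.3, 65.4 and 55.1 CPM with DMSO. The lowest CCS1477 library lay far above the highest DMSO library. The means were 102.4 ± 2.58 CPM with CCS1477 and 61.6 ± 5.66 CPM with DMSO (SD, n = 3 each), a log2 fold change of 0.73 ± 0.10 (SE, edgeR quasi-likelihood test, Benjamini-Hochberg adjusted p = 0.000404). Per length the rise was of the same order, with 32.4, 35.2 and 37.9 TPM with CCS1477 and 20.0, 23.6 and 17.1 TPM with DMSO. PBRM1 passed in all 17 alternatives run, where its log2 fold change lay between 0.65 and 0.81 with adjusted p of at most 0.0281.

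GNL3, which encodes a nucleolar GTP-binding protein, moved in the opposite direction. By the deposited gene coordinates, it overlaps PBRM1 over 4762 bases on the other strand. By the RefSeq starts given above, GNL3 begins 7 or 119 bases beyond the PBRM1 start. It had 71.3, 74.2 and 68.9 CPM with CCS1477 and 88.4, 85.4 and 92.2 CPM with DMSO, again without overlap. The log2 fold change was -0.31 ± 0.09 (SE, edgeR quasi-likelihood test, Benjamini-Hochberg adjusted p = 0.0313). Whether counting used strand is not given in the sources used here, so reads from the shared stretch cannot be told apart. SMIM4, which covers the 3′ end of PBRM1 on the other strand, had a count of 6.54% of that of PBRM1 and did not pass (log2 fold change -0.36, 95% interval -1.23 to 0.52).

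PHF10 (ENSG00000130024, chromosome 6, 169703902 to 169725566), a PHD-finger subunit that also defines PBAF, was higher by a smaller amount. It had 82.8, 77.8 and 81.4 CPM with CCS1477 and 62.0, 69.6 and 62.2 CPM with DMSO. All 3 CCS1477 libraries lay above all 3 DMSO libraries. The means were 80.7 ± 2.59 CPM with CCS1477 and 64.6 ± 4.33 CPM with DMSO (SD, n = 3 each), a log2 fold change of 0.32 ± 0.09 (SE, edgeR quasi-likelihood test, Benjamini-Hochberg adjusted p = 0.0354). The call ended without DMSO 1, DMSO 3 or any 1 CCS1477 library, where the log2 fold change stayed between 0.29 and 0.35 and the adjusted p lay between 0.0556 and 0.142. It also ended on both TPM scales, at 0.24 and an adjusted p of 0.331 by limma. C6orf120, which overlaps PHF10 over 955 bases on the other strand, stood at 0.32 ± 0.14 (SE) and did not pass.

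The other PBAF-defining genes did not pass, so 2 of 4 were higher and 0 lower, beside 7.23% higher and 10.7% lower over all tested genes. Of the 2, PHF10 passed in 8 of the 17 alternatives. ARID2, the DNA-binding subunit, had 81.8, 54.9 and 62.6 CPM with CCS1477 and 68.2, 79.6 and 57.7 CPM with DMSO. These values interleave, and the log2 fold change was -0.05 with a 95% interval of -0.38 to 0.29. BRD7, a bromodomain subunit, stood at -0.05 with a narrower interval of -0.24 to 0.13. The adenylate cyclase gene ADCY7, which overlaps BRD7 over 4649 bases on the other strand, was lower at -0.82.

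**Figure D2:**
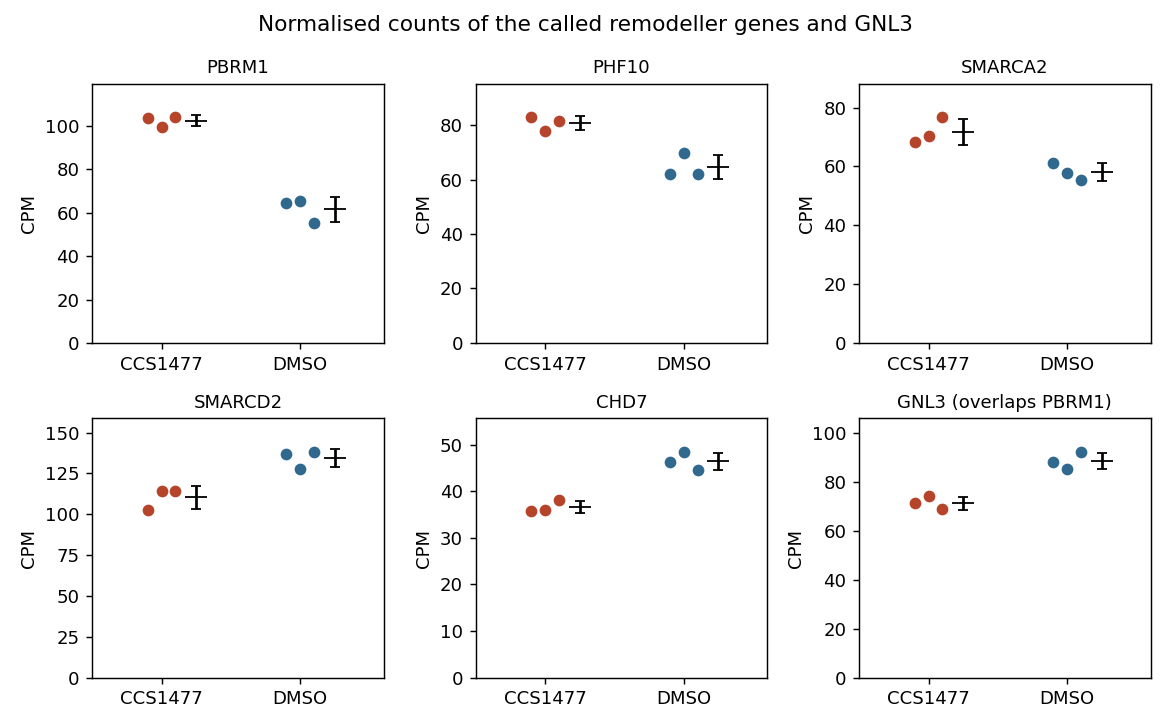
CPM of the 5 called remodeller genes and of GNL3 in each library (points), with mean and SD (n = 3) beside them, CCS1477 left of DMSO in each panel. PBRM1 sits between 99.4 and 104 CPM with CCS1477 and between 55.1 and 65.4 CPM with DMSO, while SMARCD2, CHD7 and GNL3 lie lower with CCS1477.

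Of the SWI/SNF ATPases, SMARCA2 (ENSG00000080503, chromosome 9, 1980290 to 2193624) passed narrowly in counts, and not per length. It had 68.2, 70.4 and 76.6 CPM with CCS1477 and 61.2, 57.8 and 55.4 CPM with DMSO, so the groups did not overlap. The log2 fold change was 0.30 ± 0.10 (SE, edgeR quasi-likelihood test, Benjamini-Hochberg adjusted p = 0.0490). In TPM it had 33.5, 24.8 and 30.7 with CCS1477 and 34.3, 34.4 and 28.4 with DMSO. Here the groups overlap and the direction turned, with a difference of -0.13 on the log2(TPM + 1) scale that did not pass limma. The count-based call ended without any 1 of the 6 libraries, with adjusted p between 0.0673 and 0.188.

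If both deposited tables come from 1 quantification run, which no source used here states, counts and TPM of a gene differ by the effective transcript length applied upstream. Their ratio then gives a length implied by the mix of transcripts in each library, and every length in kb from these tables rests on that assumption. Scaled so that 1296 genes with 1 annotated transcript matched their GENCODE 29 length at the median, SMARCA2 had 3.16, 4.35 and 3.74 kb with CCS1477 and 2.69, 2.55 and 2.64 kb with DMSO. Every CCS1477 library was above every DMSO library. The log2 ratio was 0.50 ± 0.12 (SE, limma unadjusted p = 0.00905), and it did not pass adjustment over 13685 genes (adjusted p = 0.699). In GENCODE 29, 3 SMARCA2 transcripts run from starts between 2015186 and 2015288 on chromosome 9 to the 3′ end, with 5.6 to 5.86 kb, and 26 begin between 2157680 and 2160613, with 0.1 to 2.24 kb. Others of its 66 transcripts begin elsewhere, the first at 1980290. The implied SMARCA2 lengths lie between these classes in all 6 libraries. Lengths in kb are approximate and can exceed the annotation. SMARCA5 came out at 8.12 to 8.51 kb, above its longest GENCODE 29 transcript of 7.92 kb. INO80 reached 6.995 kb, against a longest transcript of 6.439 kb.

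SMARCA4, the paralogous ATPase, had 34.5, 32.5 and 31.8 CPM with CCS1477 and 31.1, 35.8 and 34.4 CPM with DMSO. The groups overlapped, and the log2 fold change was -0.04 with a 95% interval of -0.28 to 0.21. Per length, SMARCA2 was above SMARCA4 in every library, with 29.7 ± 4.42 against 16.2 ± 2.47 TPM under CCS1477 and 32.4 ± 3.42 against 14.4 ± 1.33 TPM under DMSO (SD, n = 3). These TPM pool all transcripts of a gene, the short internal-start ones of SMARCA2 included, and do not compare full-length transcripts. SMARCA2 made up 59.8% to 69.4% of their summed TPM with CCS1477 and 65.5% to 72.8% with DMSO, although its share of their counts was higher with CCS1477, at 68.5% ± 2.13 against 63.2% ± 2.68 with DMSO (SD, n = 3).

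**Figure D3:**
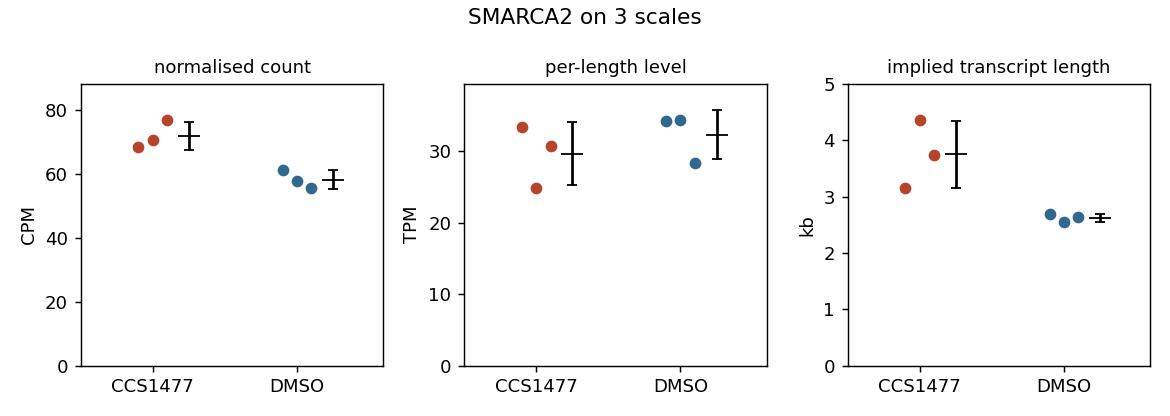
SMARCA2 in each library (points) as CPM, as TPM and as implied transcript length in kb, with mean and SD (n = 3), CCS1477 left of DMSO. The groups do not overlap in CPM or in length, and overlap in TPM.

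Of the 12 genes grouped here as core and accessory subunits, not all of which occur in every form, 0 were higher, 1 was lower (8.33%) and 11 did not pass, beside 7.23% higher and 10.7% lower over all tested genes. SMARCD2 (ENSG00000108604, chromosome 17, 63832081 to 63843065), an accessory subunit of which each complex carries 1 paralogue, had 102.4, 114.2 and 114.4 CPM with CCS1477 and 137.1, 127.7 and 137.9 CPM with DMSO. The highest CCS1477 library was below the lowest DMSO library. The log2 fold change was -0.28 ± 0.09 (SE, edgeR quasi-likelihood test, Benjamini-Hochberg adjusted p = 0.0441). The call ended without DMSO 1 or any 1 CCS1477 library, with log2 fold changes of -0.31 to -0.23 and adjusted p between 0.0993 and 0.154. It also ended with RLE size factors, scaling by library size alone, DESeq2 and no filter (adjusted p = 0.0519 to 0.0832). The TPM groups overlapped, with a difference of -0.085 on the log2(TPM + 1) scale (limma, adjusted p = 0.702).

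Its paralogue SMARCD1 leaned the other way. It had 102.1, 97.3 and 98.7 CPM with CCS1477 and 85.0, 88.8 and 73.5 CPM with DMSO, without overlap, and a log2 fold change of 0.27 ± 0.10 (SE) that did not pass (edgeR quasi-likelihood test, Benjamini-Hochberg adjusted p = 0.0741). SMARCD1 passed in 2 of the 17 alternatives, without DMSO 2 (adjusted p = 0.0446) and with scaling by library size alone (adjusted p = 0.0377). Without DMSO 3 it stood at 0.19 (adjusted p = 0.156). SMARCD3 was the least abundant of the 3, at 24.98 ± 2.87 TPM with CCS1477 and 18.6 ± 3.56 TPM with DMSO (SD, n = 3), and its log2 fold change of 0.28 had a 95% interval of -0.12 to 0.69. CHPF2, which overlaps SMARCD3 over 64 bases on the other strand, had a count of 498% of that of SMARCD3. It was higher at 0.48 (edgeR quasi-likelihood test, Benjamini-Hochberg adjusted p = 0.011). The SMARCD2 share of the family's TPM was 48.55%, 49.2% and 52.5% with CCS1477 and 56.45%, 56.3% and 60.1% with DMSO. That share was lower in every CCS1477 library, in counts as in TPM.

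Among the scaffold subunits, SMARCC1 had no overlap and a log2 fold change of -0.17 (95% interval -0.36 to 0.02) and SMARCC2 of 0.00 (-0.18 to 0.18). MYL6, whose gene overlaps SMARCC2 on the other strand, had a count of 265% of that of SMARCC2. SMARCB1, the subunit that contacts the nucleosome's acidic patch, had 70.9, 77.0 and 75.1 CPM with CCS1477 and 68.4, 62.0 and 63.0 CPM with DMSO. Its groups did not overlap, yet the log2 fold change of 0.20 did not pass (edgeR quasi-likelihood test, Benjamini-Hochberg adjusted p = 0.156). SS18, the subunit fused to SSX proteins in synovial sarcoma, was the most abundant of all 36 per length, at 130.9 ± 7.31 TPM with CCS1477 and 107.6 ± 7.97 TPM with DMSO (SD, n = 3), and did not pass at 0.18 (edgeR quasi-likelihood test, Benjamini-Hochberg adjusted p = 0.139). The HMG-domain subunit SMARCE1, the actin-like ACTL6A and the BCL7 genes BCL7A and BCL7B lay between -0.19 and 0.17.

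In CPM relative to the mean, BCL7C varied most among the DMSO libraries. It had 21.3, 28.98 and 25.2 CPM with CCS1477 and 28.9, 18.4 and 45.2 CPM with DMSO. The DMSO libraries alone spanned the whole range of the CCS1477 libraries. Its log2 fold change of -0.28 had a 95% interval of -0.84 to 0.28 and stood at 0.08 without DMSO 3.

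The BAF-defining subunits and BRD9 did not pass. ARID1A, a DNA-binding BAF subunit often mutated in cancer, had 137.8, 135.2 and 127.6 CPM with CCS1477 and 136.4, 135.0 and 110.7 CPM with DMSO. The log2 fold change was 0.07, with a 95% interval of -0.15 to 0.28. Its alternative subunit ARID1B had 66.3, 66.1 and 63.1 CPM with CCS1477 and 80.9, 78.8 and 61.4 CPM with DMSO. DMSO 3 was the library that overlapped, and without it ARID1B passed at -0.30 (edgeR quasi-likelihood test, Benjamini-Hochberg adjusted p = 0.0398), against -0.18 and an adjusted p of 0.311 with all 6. ARID1A's share of the summed TPM of both was 62.7%, 62.4% and 66.6% with CCS1477 and 59.5%, 55.9% and 57.9% with DMSO, without overlap, DMSO 3 included. DPF2, the PHD-finger subunit of BAF, differed little between libraries, at 79.9 ± 1.30 CPM with CCS1477 and 81.8 ± 1.25 CPM with DMSO (SD, n = 3), with a 95% interval of -0.22 to 0.15 for its log2 fold change. BRD9, the bromodomain subunit of the non-canonical complex, stood at -0.22 (-0.46 to 0.01).

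**Figure D4:**
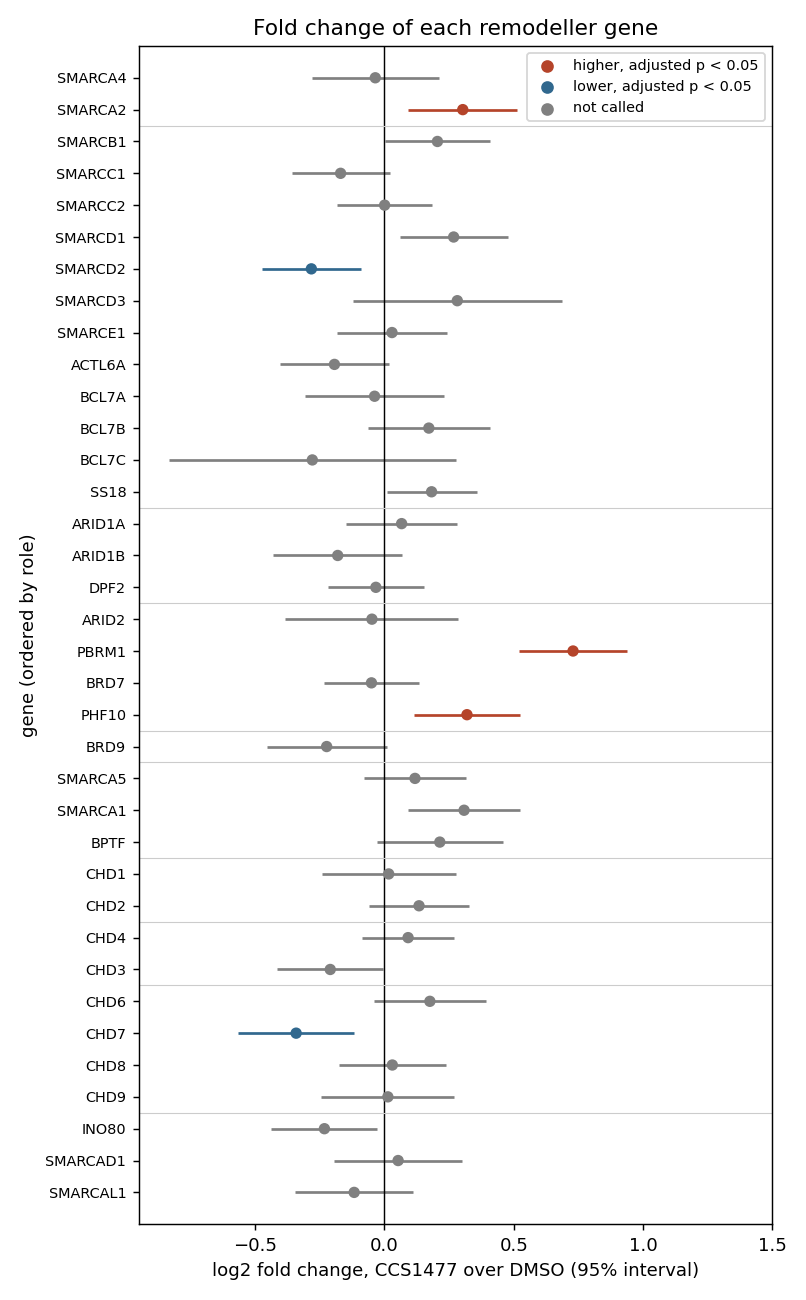
Log2 fold change of each of the 36 genes, CCS1477 over DMSO (points), with 95% intervals from the edgeR fit (lines), ordered by role. PBRM1, at 0.73, stands apart from the others, which lie between -0.34 and 0.32.

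All 3 genes of the ISWI group had positive log2 fold changes, and 0 passed. SMARCA1, the ISWI ATPase also called SNF2L, had 152.3, 140.8 and 144.3 CPM with CCS1477 and 117.7, 131.7 and 103.5 CPM with DMSO. Its groups did not overlap, and its log2 fold change of 0.31 ± 0.10 (SE) fell just outside the threshold (edgeR quasi-likelihood test, Benjamini-Hochberg adjusted p = 0.0525). It passed in 5 of the 17 alternatives (DESeq2, no filter, scaling by library size alone, the trend over transcript length removed, and without DMSO 2), with adjusted p from 0.0150 to 0.0394. It did not pass in the other 12, among them both TPM scales (adjusted p = 0.187 and 0.190), without DMSO 3 (0.0972) and without any 1 CCS1477 library (0.116 to 0.145). SMARCA5, the other ISWI ATPase (SNF2H), was more abundant, at 75.8 ± 5.34 TPM with CCS1477 and 69.7 ± 10.0 TPM with DMSO (SD, n = 3), and stood at 0.12 (95% interval -0.08 to 0.31). SMARCA1 took 41.4%, 41.7% and 42.4% of the summed TPM of both ATPases with CCS1477 and 38.2%, 38.1% and 36.6% with DMSO, without overlap. BPTF, the bromodomain and PHD-finger subunit of the NURF complex, had a log2 fold change of 0.21 (-0.03 to 0.46), and its lowest library was DMSO 3 at 127.9 CPM. Without DMSO 3, the log2 fold changes were 0.096 for BPTF, 0.054 for SMARCA5 and 0.22 for SMARCA1.

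Among the CHD enzymes, 1 of 8 was lower and 0 higher, which is near the 10.7% lower and 7.23% higher over all tested genes. CHD7 (ENSG00000171316, chromosome 8, 60678740 to 60868028), an enzyme of enhancers whose loss causes CHARGE syndrome, had 35.8, 36.05 and 38.1 CPM with CCS1477 and 46.3, 48.4 and 44.6 CPM with DMSO. The groups were well separated in counts. The log2 fold change was -0.34 ± 0.10 (SE, edgeR quasi-likelihood test, Benjamini-Hochberg adjusted p = 0.0385). In TPM it had 12.7, 7.24 and 13.2 with CCS1477 and 9.72, 10.4 and 12.4 with DMSO, which overlap, with a difference of -0.01 on the log2(TPM + 1) scale. The call ended without DMSO 1, DMSO 2 or any 1 CCS1477 library, where the log2 fold change lay between -0.37 and -0.30 and the adjusted p between 0.0887 and 0.148.

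The other CHD genes of its subfamily did not pass. CHD8, which binds the Wnt effector beta-catenin, was the most abundant of the subfamily, at 49.3 ± 2.36 TPM with CCS1477 and 51.0 ± 6.33 TPM with DMSO (SD, n = 3), and its log2 fold change was 0.03 (95% interval -0.18 to 0.24). CHD6 had 78.4, 70.7 and 82.0 CPM with CCS1477 and 68.0, 72.8 and 63.6 CPM with DMSO, which overlap through CCS1477 2 and DMSO 2, and stood at 0.18 (-0.04 to 0.39). CHD9 was at 0.01 (-0.24 to 0.27).

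CHD4 and CHD3, the ATPases of the NuRD corepressor complex, did not pass and had fold changes of opposite sign. CHD4 stood at 0.09 (95% interval -0.09 to 0.27), with 334.3, 349.8 and 336.6 CPM with CCS1477 and 317.6, 338.7 and 301.6 CPM with DMSO. CHD3 had 175.3, 206.9 and 171.8 CPM with CCS1477 and 211.4, 206.1 and 223.6 CPM with DMSO, and a log2 fold change of -0.21 (-0.41 to -0.0048; edgeR quasi-likelihood test, Benjamini-Hochberg adjusted p = 0.149). CCS1477 2 was the library that reached the DMSO range. In TPM CHD3 had 59.8, 76.4 and 58.3 with CCS1477 and 67.6, 61.0 and 152.2 with DMSO. DMSO 3 was the exception, with an implied length of 1.99 kb, against 4.71 and 5.13 kb in DMSO 1 and 2 and 4.16 to 4.54 kb with CCS1477. CHD1, which travels with elongating polymerase, and CHD2 stood at 0.02 (-0.24 to 0.28) and 0.13 (-0.06 to 0.33).

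INO80 and the SNF2-family enzymes SMARCAD1 and SMARCAL1 did not pass. INO80, the ATPase that acts on H2A.Z nucleosomes, had 61.4, 65.2 and 59.1 CPM with CCS1477 and 70.4, 76.5 and 71.3 CPM with DMSO. All 3 CCS1477 libraries were lower, and the log2 fold change of -0.23 ± 0.09 (SE) did not pass (edgeR quasi-likelihood test, Benjamini-Hochberg adjusted p = 0.111). SMARCAL1, which remodels stalled replication forks, had 35.2 ± 0.618 CPM with CCS1477 and 38.1 ± 1.40 CPM with DMSO (SD, n = 3) and stood at -0.12 (95% interval -0.34 to 0.11). SMARCAD1, which helps to restore silent chromatin after replication, was at 0.05 (-0.19 to 0.30).

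By domain, 2 of the 6 genes with a bromodomain were higher (PBRM1 and SMARCA2) and 0 lower, beside 7.23% and 10.7% of all tested genes, while SMARCA4, BRD7, BRD9 and BPTF did not pass. SMARCA2 counts here only by its call on counts, which held in 3 of the 17 alternatives and stood at -0.13 on the log2(TPM + 1) scale. Within paralogue families, CHD3 was the family member whose TPM share was widest among DMSO libraries. It took 43.7%, 36.5% and 71.1% of the summed CHD3 and CHD4 TPM with DMSO, beside 42.0%, 46.4% and 40.5% with CCS1477. In counts the CHD3 share did not overlap, at 40.0%, 37.8% and 42.6% with DMSO and 34.4%, 37.2% and 33.8% with CCS1477. CHD8 took 59.8%, 58.8% and 57.1% of the TPM of CHD6 to CHD9 with CCS1477 and 64.0%, 63.8% and 60.0% with DMSO. This did not hold in counts, where the CHD8 share was 60.0% ± 0.959 with CCS1477 and 59.4% ± 0.656 with DMSO (SD, n = 3). The CHD6 share was higher without overlap on both scales. Its means were 15.9% with CCS1477 and 11.6% with DMSO in TPM, and 17.9% and 16.1% in counts. How often shares separate in other gene families was not computed.

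**Figure D5:**
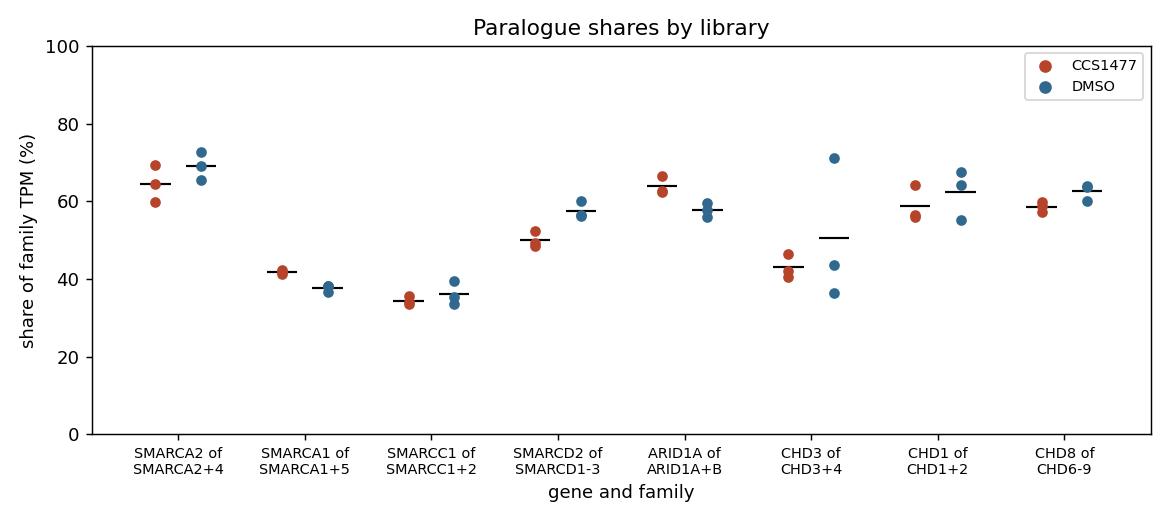
Share of a paralogue family's summed TPM taken by the named gene (vertical axis, percent) in each library (points; line, mean of 3), CCS1477 left of DMSO for each family. The groups do not overlap for SMARCA1, SMARCD2, ARID1A and CHD8, and DMSO 3 gives the high CHD3 point of 71.1%. CHD6, which is not plotted, does not overlap either. How often shares separate in other gene families was not computed, so the shares are description only.

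Implied transcript length was compared for all 36 genes. By limma with Benjamini-Hochberg adjustment 0 of them passed, as did 0 of 13685 genes in all (0% in each direction). At an unadjusted p under 0.05, 4 remodeller genes were longer (SMARCA2, PHF10, SMARCA5 and INO80) and 2 shorter (SMARCD2 and BCL7B), where 2.59% and 3.55% of all genes were. PHF10 had 2.73, 2.92 and 2.81 kb with CCS1477 and 2.52, 2.61 and 2.51 kb with DMSO, and SMARCD2 had 1.88, 1.95 and 1.75 kb with CCS1477 and 2.10, 2.01 and 2.00 kb with DMSO. These 6 were named after their values were seen. Relative to each library's median, the groups did not overlap for 4 genes in the longer direction, against 4.15% of all genes, and 2 in the shorter, against 8.1%, although those of BCL7B overlap when scaled to kb. The highest library exceeded the lowest by a median factor of 1.25 over the 36 genes and 1.22 over all genes.

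The rest of the remodelling machinery was read from a list of 70 further subunits and enzymes, of which 68 were tested and ACTL6B and CHD5 were not. Of these 6 were higher (8.82%, against 7.23% of all tested genes) and 4 lower (5.88%, against 10.7%), with a median log2 fold change of 0.07. In the TIP60 complex, which acetylates histones and exchanges H2A.Z, the ATPase EP400 had 131.3 ± 4.81 CPM with CCS1477 and 93.1 ± 13.7 CPM with DMSO, and the scaffold TRRAP had 167.9 ± 7.66 CPM with CCS1477 and 116.8 ± 22.8 CPM with DMSO (SD, n = 3). DMSO 3 was the lowest library for both, at 77.4 CPM for EP400 and 90.7 CPM for TRRAP. Their log2 fold changes were 0.49 and 0.52 (edgeR quasi-likelihood test, Benjamini-Hochberg adjusted p = 0.00952 and 0.0153). In NuRD, MBD3 was higher at 0.50 and CDK2AP1 lower at -0.45. The repair ATPase ERCC6, the TBP-displacing ATPase BTAF1 and the fork remodeller HLTF were higher at 0.60, 0.36 and 0.34, and the histone chaperone DAXX, the TIP60 subunit MRGBP and the AAA+ ATPase RUVBL2 were lower at -0.32, -0.42 and -0.31. The calls numbered 1 higher without CCS1477 2 or CCS1477 3 and 10 higher without DMSO 3, and 7 lower without DMSO 3, 1 without DMSO 1, CCS1477 1 or CCS1477 3 and 0 without CCS1477 2. Limma on log2(TPM + 1) called 0 of them in either direction.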

How the data were processed

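Poly-A RNA of 3 CCS1477 and 3 DMSO libraries of DU145 was analysed, with groups and replicate numbers taken from the sample titles. The authors deposited estimated counts per gene without normalization. Per library, 10.2% to 10.7% of values above 0 departed from a whole number by more than 1e-06. They also deposited TPM, whose columns sum to the same total. Reads were trimmed with Trimmomatic 0.39, per the submitters' processing notes. For the aligner, quantifier, build and strand setting, the answer is not given in the sources used here. Gene coordinates are those of the files, and those of 18 of the 36 genes equal GRCh38 GENCODE 29 (start within 1 base).

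Counts were rounded and filtered with filterByExpr in edgeR 4.0.16 (minimum count 10, minimum total 15), which left 14928 of 25155 genes with a count, scaled by TMM and compared by the quasi-likelihood test (Benjamini-Hochberg adjusted p under 0.05), with no covariate. Standard errors follow from the test statistic, and CPM use the TMM-scaled library sizes. The floor of 3 counts was 0.251 to 0.362 CPM by library totals without TMM factors, and covers counting error only. Implied length was log2(count/TPM), centred on each library's median, for genes with at least 10 counts in every library, tested with limma 3.58.1. Alternatives were limma-voom, DESeq2 1.42.0, limma on TPM with a pseudocount of 1 or 0.1 before log2, other scalings and filters, a threshold of 0.01, the replicate number, the length trend and leaving out each library. Everything ran in R 4.3.3 and was tested on simulated data. All 36 genes are accounted for, and of the 70 further genes up to 12 past the threshold are named by smallest adjusted p. The genes and lists were chosen with earlier results of these data known. Part of the luminal prostate marker list is not reported here.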

Additional observations from a re-analysis of the deposited data

How the results depend on the processing

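PBRM1 kept its direction and passed in all 17 alternatives. PHF10 passed in 8, SMARCD2 and CHD7 in 5 each and SMARCA2 in 3. The number of remodeller genes called higher, 3 in the analysis reported, was 5 with scaling by library size alone, and 1 at a threshold of 0.01, on both TPM scales and with the replicate block. The number called lower, 2, was 1 with RLE size factors, and 0 with scaling by library size alone, DESeq2, both TPM scales, no filter, a threshold of 0.01 or the replicate block. Leaving out 1 library gave 1 to 4 higher and 0 to 3 lower. In the list of further genes, 6 higher and 4 lower became 0 and 0 on both TPM scales, 10 higher without a filter, 1 and 1 at a threshold of 0.01, 1 lower with the replicate block, and 1 to 10 higher and 0 to 7 lower without 1 library. Over all genes, 1079 higher and 1597 lower became 293 and 427 on log2(TPM + 1), 280 and 410 on log2(TPM + 0.1), 380 and 852 at a threshold of 0.01, and 487 to 1311 and 925 to 1772 without 1 library, while scaling by library size alone gave 1458 and 1361. The labels state no pairing, so the replicate numbers were taken as names only. Deviations from the group mean had correlations of -0.0872, -0.196 and -0.00671 between same-numbered libraries. None of the 3 CCS1477 libraries correlated best with its own number. The highest values were 0.268 (CCS1477 1 with DMSO 2), 0.204 (CCS1477 2 with DMSO 3) and 0.113 (CCS1477 3 with DMSO 1). Centring within groups of 3 ties these correlations together, so they cannot exclude a pairing. The cause of these differences was not tested.

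Signs turned for genes that did not pass and for SMARCA2. On log2(TPM + 1) and log2(TPM + 0.1), the differences were -0.13 and -0.13 for SMARCA2, 0.16 and 0.17 for SMARCA4, 0.00058 and 0.00095 for SMARCC1, 0.060 and 0.064 for ARID2, 0.11 and 0.12 for BRD7, and -0.041 and -0.042 for CHD8. With scaling by library size alone SMARCA4 stood at 0.013, BCL7A at 0.010 and DPF2 at 0.015. Without 1 library the log2 fold change ran from -0.089 to 0.022 for SMARCA4, -0.032 to 0.039 for SMARCC2, -0.038 to 0.10 for SMARCE1, -0.085 to 0.023 for BCL7A, -0.53 to 0.085 for BCL7C, -0.028 to 0.12 for ARID1A, -0.22 to 0.083 for ARID2, -0.13 to 0.094 for CHD1, -0.051 to 0.10 for CHD8, -0.088 to 0.12 for CHD9 and -0.014 to 0.15 for SMARCAD1. The CHD8 family share differed by -4.01 percentage points in TPM and 0.561 in counts. With 3 libraries a group, the 95% intervals of most of these genes included 0.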
